A study of Mus musculus with 48 samples.

Results

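The response of wild-type macrophages to R848 was measured in 8 of the 48 libraries of the series, 4 of cells left in medium alone (NT) and 4 of cells given R848 at 20 ng/mL for 2 h. These were taken by their labels, with earlier results of these data known. They were compared over the 13986 genes, of 49315 in the count table, that passed a filter on low counts. The cells were bone marrow-derived macrophages (BMDM) of wild-type (WT) mice, grown from marrow for 7 days with M-CSF from a cell-conditioned medium and rested overnight without it, so that every group, NT included, had been deprived of M-CSF. Each library came from 1 mouse (2 male, numbered 1 and 2, and 2 female, numbered 3 and 4), and the same 4 mice gave NT, R848 and LPS libraries (LPS, lipopolysaccharide, at 2 ng/mL for 2 h). The series also holds macrophages of 12 mice labelled LynAKO, LynBKO or LynKO, knockouts named for the LynA isoform, the LynB isoform or Lyn as a whole, which share no library with the WT groups. The labels give neither the age nor the strain of the mice, and each ligand was given at 1 dose and 1 time.

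R848 (resiquimod) is a small imidazoquinoline that is a ligand of Toll-like receptor 7 (TLR7), an endosomal receptor for single-stranded RNA that macrophages carry. TLR7 signals through the adaptor MyD88 to the IRAK kinases and TRAF6, and from there to the NF-kB and MAP kinase pathways, which drive early transcription of cytokine and chemokine genes. LPS is sensed at the cell surface by TLR4, which signals through MyD88 and also, from endosomes, through the adaptor TRIF, a known route to interferon beta in macrophages. Inhibitors of the same pathways, such as I-kappa-B alpha, A20 and the dual-specificity phosphatases, are themselves early target genes.

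Total counts were 18656266 to 22783998 per NT library and 14974764 to 17412196 per R848 library. The first principal component of the 8 libraries held 91.7% of the variance and separated the NT from the R848 libraries. The NT library of mouse 1 had 15528 genes with a count, against 18476 to 20152 in the other NT libraries, and mitochondrial transcripts took 1.02% of the counts in the R848 library of mouse 4, against 1.42% to 1.49% in the other R848 libraries. The sex labels of all 12 WT libraries matched the sex-linked transcripts. The 10 macrophage markers summed to 36796 to 44968 CPM (counts scaled by TMM to a common library size, as CPM) in NT and 36296 to 40128 CPM in R848. Of the markers of other cells, those of T cells, NK cells, erythroid cells, mast cells and eosinophils summed to at most 1.97 CPM in any library. Markers of plasmacytoid dendritic cells summed to 217 to 299 CPM in NT and 174 to 248 CPM in R848 with 3 of 6, Siglech among them, under 1 CPM. Endothelial markers summed to 61 to 80.6 CPM and 56.7 to 88.1 CPM with 3 of 6, Cdh5 among them, under 1 CPM. B cell markers summed to 18.8 to 26.2 CPM and 11.9 to 17.1 CPM with 4 of 6, Cd79a among them, under 1 CPM, and stromal markers to 0.611 to 5.19 CPM and 4.54 to 10.3 CPM with 4 of 7 under 1 CPM and Pdgfra at 0. Neutrophil markers summed to 25.1 to 52 CPM in NT and 36 to 65.1 CPM in R848 with Ly6g, Mpo and Elane each under 1 CPM, and markers of conventional dendritic cells to 0.731 to 1.42 CPM and 4.9 to 10.8 CPM with Zbtb46 and Clec9a under 1 CPM. By the test given below, 4 of 6 neutrophil markers tested rose with R848 and 1 fell, and 1 of 5 conventional dendritic cell markers rose. Of plasmacytoid dendritic cell markers 1 of 3 rose and 1 fell, 1 of 3 stromal markers rose, 1 of 4 endothelial markers fell and 2 of 2 B cell markers fell. The part of such cells in the results was not tested, and in whole cultures less RNA per cell and fewer cells with a transcript cannot be told apart.

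In what follows a level is in CPM, and ± after a mean level is the SD of 4 libraries. A change is a log2 fold change fitted by edgeR (4 libraries against 4, 1 per mouse). The ± after a change is an SE worked back from edgeR's test, as the size of the change over the square root of F. Its spread comes from the whole fit, which for R848 against NT held the LPS libraries too. For genes with almost no NT counts it is not an ordinary standard error. A gene is said to have risen or fallen where the p of edgeR's quasi-likelihood test, adjusted over all 13986 genes by Benjamini and Hochberg, was under 0.05. Where the levels of 4 libraries are listed, they stand in the order of mice 1 to 4. For genes said to have risen or fallen and given with a change, the 4 R848 libraries lay outside the range of the 4 NT libraries unless it is stated that they overlapped.

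Within 2 h, 7935 of the genes tested (56.7%) changed, and 7764, 6795, 6765 and 6955 without mouse 1, 2, 3 and 4 in turn. R848 raised 4199 genes (30.0% of those tested) and lowered 3736 (26.7%). These 2 shares are the background for the counts of each gene list below. Most of these changes were small, since 1724 genes rose at least 2-fold (12.3%), 1491 fell at least 2-fold (10.7%), 415 rose at least 8-fold (2.97%) and 99 fell at least 8-fold (0.708%), 3.68% of genes in either direction. The 4 libraries of R848 and the 4 of NT did not overlap for 7369 genes (52.7%). The genes that rose at least 8-fold took 0.422%, 0.419%, 0.421% and 0.443% of all counts in the NT libraries and 6.38%, 6.4%, 7.97% and 7.82% in the R848 libraries, with mice 3 and 4 above mice 1 and 2. The genes that fell at least 8-fold went from 0.318% to 0.329% of the counts in NT to 0.0127% to 0.0192% in R848.

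The genes with the largest changes were short, whichever way they moved. The median exon length of the 415 genes that rose at least 8-fold was 3118 bases, and their median gene span was 13068 bases with 5 exons in the longest transcript, against 4002 bases, 19153 bases and 8 exons over all genes tested. For the 99 that fell at least 8-fold these were 3017.5 bases, 8959 bases and 4 exons. Protein-coding genes made up 73.7% of the 415 and 85.5% of all genes tested.

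The direction of small changes rests on the scaling. TMM sets the middle of the genes near no change, and the median over all genes tested was -0.03 on the log2 scale. Scaled to total counts, changes were lower by a median of 0.37 on the log2 scale. On that scaling 2468 genes rose and 6809 fell in place of 4199 and 3736. The 2468 and 6809, of 13986 genes, are the background for list counts on total counts. Rises well above 0.37 keep their direction under both scalings. Where the share of higher calls in a list moved by over 10 percentage points, the counts on total counts are given beside the main ones.

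**Figure D1:**
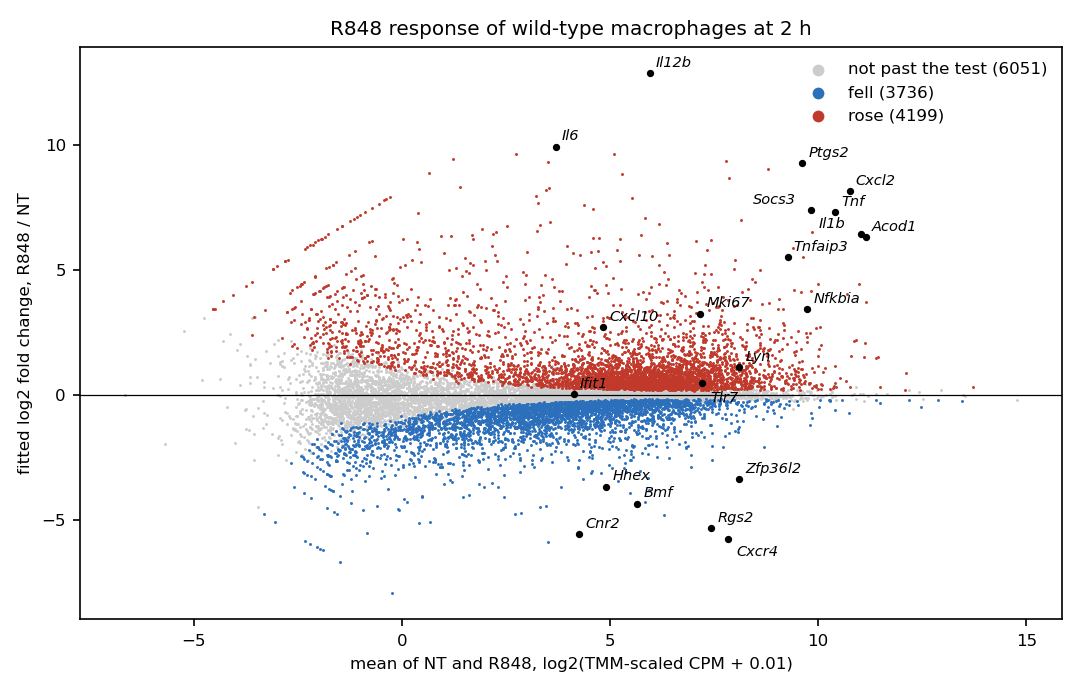
Each point is 1 of 13986 genes. The x axis is the mean level over NT and R848 as log2(CPM + 0.01) and the y axis the fitted log2 fold change of R848 over NT in WT, with 4199 genes that rose in red, 3736 that fell in blue and the rest in grey. Named genes are black, and 127 rises but only 15 falls are 32-fold or larger. Rows of points at the left are genes with no or few counts in 1 group, whose fitted change depends on a prior count.

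Most of these calls were also made in mice that the WT comparison did not use. In the 12 knockout mice, fitted as the mean response of the 3 genotypes over their own 36 libraries, R848 raised 5017 genes (35.9%) and lowered 5587 (39.9%), 75.8% of genes in all. Of the 4199 genes that rose in WT, 4047 (96.4%) also rose there, which is 80.7% of those that rose in the knockouts. Of the 3736 that fell in WT, 3635 (97.3%) fell there too, which is 65.1% of those that fell in the knockouts. No gene passed the test in opposite directions. All but 3 of the 415 genes that rose at least 8-fold in WT rose in the knockouts, and 335 of them again at least 8-fold, where 3.47% of genes changed at least 8-fold in either direction. Without 4 knockout NT libraries in doubt (LynBKO mice 2 and 3, whose sex labels are exchanged against the other groups' numbering, and LynBKO and LynKO mouse 4, which held transcripts of both sexes), 9612 genes passed the test in place of 10604. Whether the response differs between genotypes was not tested here.

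Of the receptors, those of nucleic acids had small changes. Tlr7 (ENSMUSG00000044583, chrX:167304929-167330558, minus strand of GRCm38), which encodes the R848 receptor, measured 134, 119.7, 126 and 126 CPM in NT and 178, 157, 187 and 165 CPM in R848. All 4 R848 libraries lay above the NT libraries, and the change was 0.47 ± 0.08 (adjusted p = 7.07e-05), which did not pass the test on total counts. Of the 18 genes of the nucleic acid sensing list only Tlr7 rose, 6 fell and the median was -0.09, while on total counts 0 rose and 15 fell. Among the 6 were Cnpy3, a chaperone of Toll-like receptors (-0.73 ± 0.10), Tlr3, the receptor of double-stranded RNA (-0.64 ± 0.11), and the endosomal protease gene Ctsl (-0.61 ± 0.07). Of the 10 surface receptor and co-receptor genes tested, 5 rose and 3 fell, and on total counts 4 rose and 4 fell. Tlr2, which pairs with Tlr1 or Tlr6 to sense bacterial lipopeptides, rose by 2.68 ± 0.08 to 1698 ± 56.8 CPM, Tlr1 by 2.63 ± 0.09 and Tlr6 by 0.79 ± 0.11. Cd14, a co-receptor that hands ligands to several of these receptors, stood at 1648, 1491, 1341 and 1327 CPM in NT and 3893, 3783, 3988 and 4638 CPM in R848 and was already the 31st most abundant transcript per length in NT. The fifth riser was the scavenger receptor gene Cd36 (0.63 ± 0.20), whose NT and R848 libraries overlapped and whose call was lost without mouse 1 and on total counts. The 3 that fell were Tlr5, the flagellin receptor (-3.25 ± 0.47), Ly86 (-0.48 ± 0.10) and Tlr4, the LPS receptor (-0.34 ± 0.12), whose call was lost without mouse 3 or mouse 4.

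All genes of the MyD88 list passed the test. Of 25 adaptor and kinase genes, 22 rose, 3 fell and the median change was 0.93, and on total counts 19 rose and 4 fell. The largest rises were those of Tnip1, a partner of A20 (3.45 ± 0.11), Ikbke, an I-kappa-B kinase relative (2.72 ± 0.09), Irak3, the inhibitory member of the IRAK family (2.48 ± 0.11), and Map3k8, the kinase also called TPL2 (2.24 ± 0.10). The 3 that fell were Tab1 (-1.32 ± 0.18), Peli2 (-0.87 ± 0.13) and Irak4, the first kinase recruited by MyD88 (-0.64 ± 0.10).

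The NF-kB genes rose as a group together with their inhibitors. Of 12 genes tested, 11 rose and 1 fell, with a median of 2.47. Nfkbia (ENSMUSG00000021025, chr12:55489410-55492647, minus strand), which encodes I-kappa-B alpha, measured 158, 131, 134 and 163 CPM in NT and 1473, 1457, 1542 and 1745 CPM in R848, a change of 3.43 ± 0.10 (adjusted p = 8.2e-15). Nfkbiz, an inducible nuclear I-kappa-B protein needed for part of the secondary response, rose most, from 41.5, 33.5, 28.6 and 37.4 CPM to 1426, 1226, 1774 and 1812 CPM (5.5 ± 0.15). The subunit gene Nfkb1 rose by 2.85 ± 0.10 and the inhibitor gene Nfkbie by 3.63 ± 0.10. The gene that fell was Ikbip (-1.25 ± 0.13).

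Feedback inhibitors were among the steepest risers. Socs3, which blocks cytokine receptor signalling, measured 14.8, 7.83, 9.93 and 12 CPM in NT and 1657, 1840.3, 1847 and 1914 CPM in R848, with no overlap and a change of 7.38 ± 0.17. Tnfaip3, which encodes the ubiquitin-editing enzyme A20, went from 27.7, 26.3, 28.9 and 26.1 CPM to 1055, 1154, 1455 and 1150.3 CPM (5.49 ± 0.11). The interleukin-1 receptor antagonist gene Il1rn rose by 4.85 ± 0.18 and Cish by 4.64 ± 0.26. Over the whole feedback list of 24 genes 15 rose and 6 fell, and on total counts 12 rose and 8 fell. Other negative regulators fell: Tnfaip8l2 (-2.55 ± 0.17), Nlrx1 (-1.35 ± 0.19), Sigirr (-1.33 ± 0.30) and Inpp5d, the lipid phosphatase SHIP1 (-1.15 ± 0.15).

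**Figure D2:**
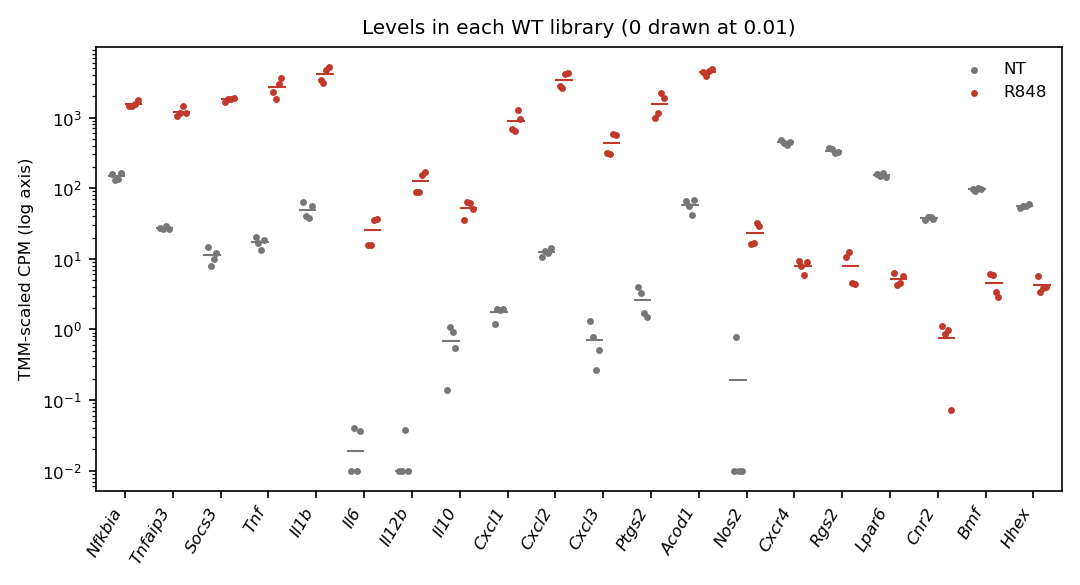
TMM-scaled CPM on a log axis in each of the 4 NT (grey) and 4 R848 (red) libraries of WT macrophages, with the mean of each group as a bar and zeros drawn at 0.01. For the first 14 genes every red point lies above every grey one, and for the last 6, from Cxcr4 to Hhex, every red point lies below.

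MAP kinase feedback genes split into risers and fallers. Of 18 tested, 13 rose and 3 fell, with a median of 2.42. Dusp2 went from 0.930, 1.58, 0.802 and 1.79 CPM to 62.4, 57.2, 71.3 and 92.3 CPM (5.8 ± 0.22), and Dusp8 (4.22 ± 0.32) and Dusp16 (4.07 ± 0.11), which act on the JNK and p38 kinases, rose less. Spry1 rose by 5.1 ± 0.54 from 5 counts in all 4 NT libraries together. The 3 that fell were Dusp6, the phosphatase of cytoplasmic ERK (-2.37 ± 0.22), Dusp7, a close relative of it (-1.19 ± 0.13), and Spry2 (-0.73 ± 0.18).

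The early transcription factors moved in both directions, and Fos was among those that fell. Of 16 AP-1 and ATF genes, 10 rose and 3 fell. Maff (4.07 ± 0.23), Fosl1 (3.87 ± 0.34), Jdp2 (3.71 ± 0.10) and Batf (2.87 ± 0.17) rose most. Fos measured 176, 197, 194 and 177 CPM in NT and 60.2, 73.4, 58.4 and 60.5 CPM in R848 and so fell by 1.53 ± 0.14 on the log2 scale. Of 23 EGR, NR4A, KLF and related genes 10 rose and 10 fell, and on total counts 8 rose and 12 fell. Egr2 (4.67 ± 0.17), Klf7 (4.31 ± 0.11), Nr4a3 (3.6 ± 0.29) and Ier3 (2.96 ± 0.13) rose. Hes1, a Notch target that encodes a repressor, was counted 310 times in the NT libraries and 5 times in the R848 libraries (-5.09 ± 0.55), and Klf4 (-2.29 ± 0.17), Nr4a2 (-2.02 ± 0.19) and Klf10 (-1.48 ± 0.11) fell. Myc, the growth regulator, rose by 2.85 ± 0.23 from 3.88 ± 1.63 CPM to 27.6 ± 6.46 CPM.

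Regulators of mRNA decay moved in opposite directions within 1 family. Of 18 genes 12 rose and 5 fell, and on total counts 7 rose and 6 fell. Zfp36, which encodes tristetraprolin, the protein that binds AU-rich elements of cytokine mRNAs, rose by 1.83 ± 0.11 to 867 ± 140.2 CPM. Its relative Zfp36l2 measured 502, 502, 510.5 and 489 CPM in NT and 59.8, 53.4, 37.1 and 39 CPM in R848 and fell by 3.37 ± 0.14 on the log2 scale, and Zfp36l1 fell by 1.31 ± 0.15. The endoribonuclease genes Zc3h12c (5.18 ± 0.21) and Zc3h12a, also called regnase-1 (3.16 ± 0.10), rose, while Zc3h12d fell (-1.01 ± 0.14).

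Of the 39 lists, that of cytokines had the highest median. Of 29 tested, 22 rose and 2 fell, with a median of 5.15. It is 4.92 with the 4 genes that had no NT count and over 3 in R848 set at their change against 3 counts over the NT group. Tnf (ENSMUSG00000024401, chr17:35199381-35202007, minus strand) measured 20.6, 16.6, 13.5 and 18.7 CPM in NT and 2315, 1813, 2955 and 3682 CPM in R848, a change of 7.31 ± 0.22 (adjusted p = 1.16e-14). Il1b, which encodes interleukin-1 beta, measured 64.5, 40.5, 37.2 and 55 CPM and 3422, 3128, 4745 and 5159.5 CPM (6.41 ± 0.21), and its neighbour Il1a 1.72, 1.14, 0.802 and 1.02 CPM and 361, 328, 603 and 561 CPM (8.67 ± 0.26). In all 3 the R848 libraries of mice 3 and 4 were higher than those of mice 1 and 2. Il12b, the p40 chain shared by interleukins 12 and 23, had 1 count in the 4 NT libraries together and 7354 in the R848 libraries. After scaling to TMM-adjusted library sizes, as for the other ratios of counts, this was a ratio of 12106 (95% exact interval 2172 to 478220, which covers counting error only). Its R848 libraries stood at 88.3, 88.1, 154 and 167 CPM. Il6 had 2 counts in NT and 1517 in R848, a ratio of 1249 (345 to 10320), with 15.9, 15.4, 35.6 and 36.4 CPM in R848. Edn1, which encodes the vasoactive peptide endothelin-1, had 3 counts and 1359, a ratio of 746 (255 to 3620.5).

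The anti-inflammatory cytokine gene Il10 was induced in the same 2 h. It measured 0.140, 1.09, 0.917 and 0.548 CPM in NT and 35.8, 63, 61.9 and 50.3 CPM in R848 (6.27 ± 0.31). The 2 cytokine genes that fell were Osm, a cytokine of the interleukin-6 family (-1.35 ± 0.17), and Tnfsf13b, the B cell factor BAFF (-1.42 ± 0.32). Of the 5 that did not pass the test, Il33 had no count in the 8 libraries and so could not be compared, and Il18, Ltb, Tnfsf10 and Tnfsf14 had changes from -0.38 to 0.32.

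Chemokine genes followed, led by those that attract neutrophils. Of 21 tested, 17 rose, 1 fell and the median was 2.74. Cxcl2 measured 10.7, 13.1, 12.2 and 14 CPM in NT and 2752, 2579, 4150.5 and 4284 CPM in R848 (8.13 ± 0.20). Cxcl1 measured 1.21, 1.95, 1.87 and 1.94 CPM and 694, 636, 1285 and 962 CPM (9.01 ± 0.31), and Cxcl3 1.3, 0.770, 0.267 and 0.512 CPM and 314, 307, 576 and 568 CPM (9.34 ± 0.34). The genes of these 3 ligands of CXCR2 lie in 1 cluster on chromosome 5. Of the CC chemokines, Ccl4 went from 7.26, 6.12, 2.14 and 3.03 CPM to 394, 369.7, 585 and 910.0 CPM (6.97 ± 0.36), with mice 3 and 4 lower in NT and higher in R848. The chemokine gene that fell was Cxcl14 (-0.96 ± 0.10).

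The promoters of 5 of these induced genes are shown because they share 1 sequence string that is rare among promoters. RefSeq windows of 300 bases (GRCm38.p6, from 250 before to 50 after the start of a transcript) were available for 10020 of the 13986 genes tested, and a form of the NF-kB motif, GGGA followed by any base and TTTCC, was searched on both strands. It was found in the windows of Il6, Cxcl1, Cxcl2 and Cxcl3, which are 4 of the 15 genes that rose most, and of Nfkbia. The match is in capitals, on the strand shown for the first 4 and on the other strand for Nfkbia, and it starts at -97 to -29 from the start of the transcript. Of the rest of those 15, Il12b, Tmem200b, Shisa3, Edn1, Ptgs2, Mir155hg, Il1a, Bcl2a1a and Rasgrp1 had a window without the string. Adamts4 and Adora2a had no window. The string was also found for Gbp5, which rose, and for Tlr3, which fell. The genes given here are not all those that carried it, since only genes named in the text were looked at singly.
Il6 (chr5:30012864-30013163, plus strand): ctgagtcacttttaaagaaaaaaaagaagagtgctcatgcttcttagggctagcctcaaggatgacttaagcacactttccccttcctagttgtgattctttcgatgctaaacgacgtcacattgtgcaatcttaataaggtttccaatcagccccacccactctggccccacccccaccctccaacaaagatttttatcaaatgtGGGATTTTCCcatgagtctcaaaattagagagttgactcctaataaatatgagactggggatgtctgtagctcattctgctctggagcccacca
Cxcl1 (chr5:90890995-90891294, plus strand): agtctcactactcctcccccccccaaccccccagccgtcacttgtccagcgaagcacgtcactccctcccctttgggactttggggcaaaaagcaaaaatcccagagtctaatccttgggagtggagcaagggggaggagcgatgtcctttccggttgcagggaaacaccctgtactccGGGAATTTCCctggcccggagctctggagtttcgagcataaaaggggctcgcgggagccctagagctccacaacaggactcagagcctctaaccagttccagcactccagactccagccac
Cxcl2 (chr5:90903649-90903948, plus strand): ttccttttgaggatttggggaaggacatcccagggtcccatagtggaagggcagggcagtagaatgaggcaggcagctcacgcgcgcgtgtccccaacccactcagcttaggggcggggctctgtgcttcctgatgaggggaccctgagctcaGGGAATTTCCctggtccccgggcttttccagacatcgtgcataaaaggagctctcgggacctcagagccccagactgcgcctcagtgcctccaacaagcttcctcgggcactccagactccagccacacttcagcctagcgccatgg
Cxcl3 (chr5:90785851-90786150, plus strand): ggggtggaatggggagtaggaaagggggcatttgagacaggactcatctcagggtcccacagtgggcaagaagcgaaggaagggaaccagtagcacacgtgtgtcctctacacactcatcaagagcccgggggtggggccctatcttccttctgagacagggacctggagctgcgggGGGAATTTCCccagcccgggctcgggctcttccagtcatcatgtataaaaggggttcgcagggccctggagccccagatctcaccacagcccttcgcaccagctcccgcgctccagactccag
Nfkbia (chr12:55492598-55492897, minus strand): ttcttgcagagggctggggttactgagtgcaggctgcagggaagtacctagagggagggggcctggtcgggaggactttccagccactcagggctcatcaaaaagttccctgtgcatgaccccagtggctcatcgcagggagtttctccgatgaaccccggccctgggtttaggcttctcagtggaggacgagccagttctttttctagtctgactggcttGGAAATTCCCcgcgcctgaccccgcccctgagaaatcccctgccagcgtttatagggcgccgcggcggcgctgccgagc

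The matched bases were GGGATTTTCC in Il6, GGGAATTTCC in Cxcl1, Cxcl2 and Cxcl3, and GGAAATTCCC, read on the strand shown, in Nfkbia. The string stood in 6 of 91 windows (6.59%) of genes that rose at least 32-fold, in 9 of 314 windows (2.87%) of genes that rose at least 8-fold, in none of 81 windows of genes that fell at least 8-fold and in 63 of 12755 windows (0.49%) of all genes tested. It was 1 of 12 strings searched. The AP-1 string TGANTCA stood in 19.8%, 10.8%, 3.7% and 5.35% of the same windows, and the TATA string TATAAA in 23.1%, 15.9%, 9.88% and 7.31%. The CRE string TGACGTCA stood in 2.2% of the windows of genes that rose at least 32-fold and in 2.97% of all. The median GC content was 52.3% in the windows of genes that rose at least 32-fold and 60.3% in all. These are counts of letters in short windows, without a test, and no binding was measured.

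Interferon genes had few or no counts with R848, and 26 of 47 antiviral interferon-stimulated genes did not pass the test against NT. Ifnb1, the interferon beta gene, had no count in the 4 NT libraries and 4 counts in the R848 libraries. Against a limit of 3 counts over the NT group this is 2.19-fold, with no allowance for the counting error of the 4. The call (edgeR adjusted p = 0.0468) was lost when any single mouse was left out. It was also lost without the filter on low counts, on total counts and with the 8 libraries alone. Of 18 interferon and IRF genes 9 rose and 4 fell, and on total counts 7 rose and 7 fell. Ifnar1 (1.69 ± 0.08) and Ifnar2 (0.99 ± 0.07), the 2 chains of the type I interferon receptor, Irf1 (1.59 ± 0.11) and Stat5a (1.4 ± 0.14) rose. Irf8, a factor of the myeloid lineage, measured 281, 258, 255 and 257 CPM in NT and 89.5, 101, 71.5 and 92 CPM in R848 and fell by 1.54 ± 0.13 on the log2 scale.

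Of these 47 genes 14 rose (29.8%, against 30.0% of all genes tested) and 7 fell (14.9%, against 26.7%), with a median of -0.04. On total counts 10 rose and 24 fell, where 2468 and 6809 of all 13986 genes did. Rsad2, which encodes viperin, measured 27.4, 27.1, 11.5 and 14.9 CPM in NT and 13.2, 18.3, 24.5 and 33.7 CPM in R848, and Ifit1 24, 19.7, 11.6 and 14.3 CPM and 8.02, 14.6, 16.3 and 31.2 CPM. For both, the libraries overlapped and the changes of 0.17 ± 0.26 and 0.03 ± 0.28 did not pass the test (adjusted p = 0.591 and 0.934). Ifit3 (-1.08 ± 0.21), Ifit3b (-1.37 ± 0.30) and Oas1b (-0.86 ± 0.18) fell. The largest rises of the list were those of the neighbouring DNA sensor genes Ifi205 (5.96 ± 0.26), Ifi203 (3.79 ± 0.17) and Ifi211 (3.66 ± 0.16) on chromosome 1, whose near-identical copies make each single count uncertain, and of Parp14 (1.81 ± 0.11). Among 16 interferon-inducible GTPase genes 6 rose (37.5%, against 30.0% of all genes tested) and 4 fell (25.0%, against 26.7%). On total counts 5 rose and 8 fell. Gbp5 measured 3.02, 3.16, 1.34 and 2.34 CPM in NT and 124, 136, 204 and 184 CPM in R848 (6.07 ± 0.21), Gbp2 rose by 2.69 ± 0.20 and Gbp3 by 2.17 ± 0.20, while Gbp8 (-2.17 ± 0.71, a call lost without mouse 2), Irgm2 (-0.74 ± 0.14) and Igtp (-0.47 ± 0.12) fell.

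The R848 and LPS libraries of the same mice were then compared directly, and nearly all interferon-stimulated genes were lower with R848. The contrast used no NT level, but the NT libraries were part of the fit and so of its spread. With the R848 and LPS libraries alone, 2555 genes were called, 1066 higher with R848 and 1489 lower. The main fit called 2932 genes, 1403 higher with R848 (10.0%) and 1529 lower (10.9%), and 1830 without mouse 2. At a size of 2-fold or more the balance was unequal, with 173 genes higher (1.24%) and 530 lower (3.79%), and at 8-fold 6 were higher (0.0429%) and 94 lower (0.672%). Of the 47 antiviral genes 46 were lower with R848 than with LPS, with a median difference of -2.54, and of the 16 GTPase genes 15 were lower. Rsad2 measured 1578, 1475, 1252 and 1619.7 CPM with LPS (-6.04 ± 0.30 for R848 against LPS, adjusted p = 8.36e-11). Ifit1 measured 816, 829, 829 and 832 CPM with LPS (-5.55 ± 0.31), and Cxcl10, a ligand of CXCR3, 30.7, 40.2, 55.3 and 71.7 CPM with R848 and 2999.9, 2484, 2567 and 3031 CPM with LPS (-5.8 ± 0.28). For these 3 genes every R848 library lay far below every LPS library. The others of the 8 largest were Oasl1 (-6.28 ± 0.30), Cxcl11 (-6.23 ± 0.24), Cmpk2 (-5.64 ± 0.24), Mx2 (-5.46 ± 0.22) and Trim30c (-5.31 ± 0.29). Irf1 (-2.16 ± 0.11), Stat5a (-2.38 ± 0.14) and the cyclin gene Ccnd2 (-3.05 ± 0.19) were lower with R848 as well, although all 3 rose over NT.

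Of 29 inflammatory cytokine genes 13 were lower with R848 than with LPS and 1 was higher, with a median difference of -0.86. Tnf measured 2942, 2368, 2827 and 2868 CPM with LPS, a difference of -0.02 ± 0.16, and Il1b 4205, 3813, 4706 and 3976 CPM, a difference of -0.01 ± 0.17 (adjusted p = 0.962 and 0.986). The LPS range of both genes lay within the R848 range or overlapped it. Il12b was higher with R848 than with LPS, at 88.3, 88.1, 154 and 167 against 76.4, 60.1, 53.9 and 51.4 CPM (1.05 ± 0.18, adjusted p = 0.000432), while Il6 was lower, at 15.9, 15.4, 35.6 and 36.4 against 67.1, 60.3, 82.1 and 80.7 CPM (-1.48 ± 0.23). Il10 (-0.99 ± 0.21), Il1a (-0.82 ± 0.17), Il1rn (-1.57 ± 0.15) and Edn1 (-1.62 ± 0.16) were lower too, and Nfkbiz was higher (0.94 ± 0.12). The 8 genes that were highest against LPS were Pim2, which encodes a survival kinase (2.04 ± 0.16), Cd300e (1.67 ± 0.15), Art2a-ps (1.66 ± 0.19), the scavenger receptor gene Marco (1.66 ± 0.44, a call lost with DESeq2 and without mouse 3 or mouse 4), Kcnj2 (1.64 ± 0.18), Card6 (1.61 ± 0.25), Plekhg3 (1.57 ± 0.14) and Id3 (1.56 ± 0.15). Pim2 measured 4.61, 3.37, 4.32 and 3.91 CPM in NT, 21.7, 16, 16.8 and 23.1 CPM with R848 and 5.39, 5.01, 4.36 and 4.21 CPM with LPS, and Cd300e 6.37, 8.88, 5.54 and 6.0, 31.5, 39.9, 43.5 and 40.7 and 14.2, 13.7, 10.6 and 10.6 CPM. Not all 8 were above NT: Plekhg3 fell over NT and stood at 59.3 ± 2.83 CPM in NT, 16.6 ± 2.88 CPM with R848 and 5.7 ± 0.840 CPM with LPS. Card6 was at -0.40 ± 0.22 against NT, which did not pass the test but passed it without the filter, on total counts and without mouse 1, and the rise of Id3 (0.50 ± 0.15) was lost on total counts and without mouse 4. On total counts the differences from LPS were higher by about 0.15, and 74.2% of 4109 called genes were higher with R848 in place of 47.9% of 2932.

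**Figure D3:**
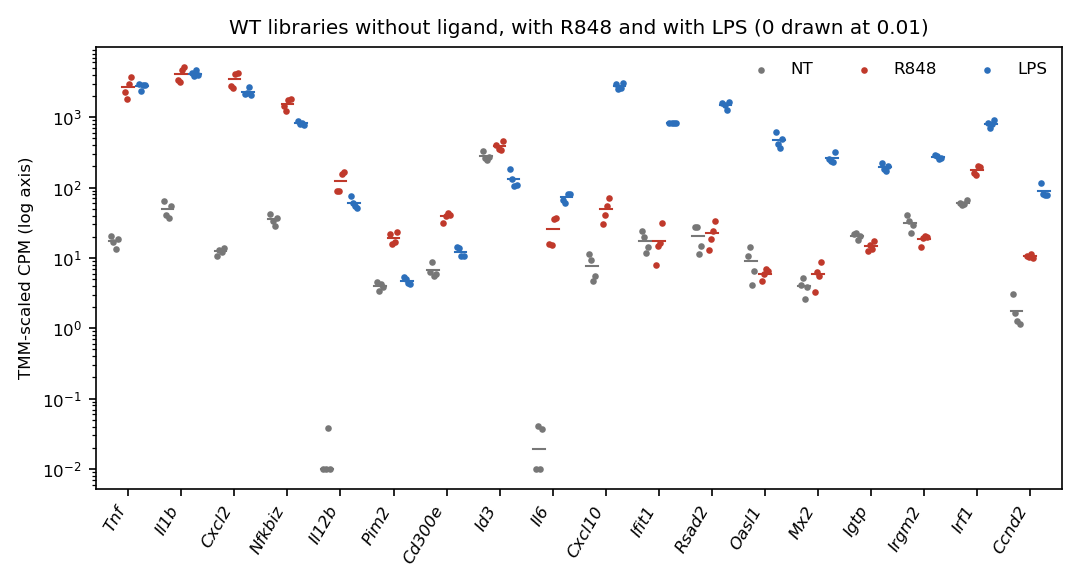
TMM-scaled CPM on a log axis in the NT (grey), R848 (red) and LPS (blue) libraries of the 4 WT mice, with group means as bars and zeros drawn at 0.01. Tnf and Il1b overlap between the ligands, Pim2, Cd300e and Id3 are higher with R848, and from Cxcl10 to Irgm2 every blue point lies far above every red one.

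Of 23 genes for enzymes that make lipid mediators, nitric oxide and itaconate 13 rose and 5 fell, and on total counts 12 rose and 8 fell. Ptgs2 (ENSMUSG00000032487, chr1:150100031-150108227, plus strand), which encodes the cyclooxygenase COX-2, measured 4.0, 3.28, 1.68 and 1.5 CPM in NT and 998, 1168, 2226 and 1861 CPM in R848 (9.27 ± 0.34). Acod1, the enzyme that makes itaconate, measured 66.3, 55.9, 41.7 and 67.7 CPM and 4479, 3914, 4561 and 4891 CPM (6.3 ± 0.15), and per length it moved from the 1884th to the 18th most abundant transcript. Ch25h, which makes 25-hydroxycholesterol, rose by 7.42 ± 0.38 to 48.2 ± 19.3 CPM. Nos2, the inducible nitric oxide synthase gene, had a count in 1 NT library only and measured 0, 0.770, 0 and 0 CPM in NT and 16, 16.7, 32 and 29.1 CPM in R848 (6.91 ± 0.56). The constitutive cyclooxygenase gene Ptgs1 (-0.61 ± 0.13), the prostaglandin-degrading Hpgd (-0.61 ± 0.16), Alox5ap (-0.38 ± 0.10) and Tbxas1 (-0.36 ± 0.08) were among the 5 that fell.

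Of 18 inflammasome genes 7 rose (38.9%, against 30.0% of all genes tested), 4 fell (22.2%, against 26.7%) and 7 did not pass the test. On total counts 6 rose and 8 fell, where 2468 and 6809 of all 13986 genes did. Nlrp3 measured 79.2, 66.3, 74 and 72.5 CPM in NT and 1170.1, 1183, 1459 and 1396 CPM in R848 (4.18 ± 0.13), and Mefv, which encodes pyrin (4.22 ± 0.13), and Casp4 (3.11 ± 0.09) rose too. P2rx7, the ATP-gated channel that activates NLRP3 (-1.68 ± 0.11), and Txnip (-2.1 ± 0.18) fell.

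Of the 30 genes of the TNF receptor, TRAF and cell death list, 22 rose and 4 fell, with a median of 1.61, and on total counts 20 rose and 8 fell. Cd40, a co-stimulatory receptor, rose by 6.14 ± 0.21 to 266 ± 68.7 CPM. Bcl2a1a (8.18 ± 0.53) and Bcl2a1d (6.84 ± 0.30), near-identical copies of an anti-apoptotic gene whose reads can be shared, rose as well. Tnfrsf9, also called 4-1BB, had 3 counts in NT and 153 in R848, a ratio of 84 (95% exact interval 28.2 to 412). Of the BH3-only genes, Bcl2l11, also called Bim, rose (1.1 ± 0.09). The 4 genes of the list that fell were Bmf, from 96.6, 90.0, 101 and 97.1 CPM to 6.06, 5.83, 3.33 and 2.89 CPM (-4.36 ± 0.19), Bbc3, also called Puma (-2.02 ± 0.18), Pmaip1, also called Noxa (-0.28 ± 0.11, lost without mouse 2 or mouse 3), and Tnfrsf26 (-0.95 ± 0.15).

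Chemotactic and lipid receptors were among the steepest falls. Cxcr4 (ENSMUSG00000045382, chr1:128588199-128592293, minus strand), the receptor for CXCL12, measured 486, 443, 412 and 456 CPM in NT and 9.31, 7.8, 5.88 and 8.97 CPM in R848 (-5.78 ± 0.14, adjusted p = 8.23e-16). Cnr2, the cannabinoid receptor of immune cells, measured 35.8, 39.6, 38.6 and 36.9 CPM and 1.1, 0.860, 0.992 and 0.0723 CPM (-5.57 ± 0.27), with its lowest value in mouse 4. Lpar6 measured 156, 148, 162 and 143 CPM and 6.24, 4.3, 4.61 and 5.78 CPM (-4.83 ± 0.17), and Lpar5 fell by 3.53 ± 0.41 on the log2 scale. Other receptors of the same list rose, among them the niacin and ketone body receptor Hcar2 (7.05 ± 0.36), the adenosine receptors Adora2a (7.85 ± 0.31) and Adora2b (4.63 ± 0.11), and the medium-chain fatty acid receptor Gpr84 (5.03 ± 0.18). In all, 21 of 41 rose and 14 fell, and on total counts 18 rose and 17 fell.

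Outside the lists, the 15 steepest falls among genes of at least 5 CPM included regulators of G protein and growth factor signalling. Rgs2, which quenches G protein signals, measured 371, 353, 311 and 320.3 CPM in NT and 10.6, 12.6, 4.54 and 4.34 CPM in R848 (-5.35 ± 0.25). The paired GSK-3 binding genes Frat1 (-5.9 ± 0.24) and Frat2 (-4.74 ± 0.22), which lie next to each other on chromosome 19, both fell. Fbxo32, also called atrogin-1 (-4.79 ± 0.35), Angptl4 (-4.5 ± 0.19), Arrdc3 (-4.3 ± 0.17), Tsc22d3, the glucocorticoid-induced leucine zipper (-3.95 ± 0.18), Tifab (-3.81 ± 0.14), Ier5l (-3.7 ± 0.22) and Engase (-3.46 ± 0.21) complete the 15 together with Hhex, Bmf, Cxcr4, Cnr2 and Lpar6. The 15 steepest rises hold, beside the cytokine, chemokine and enzyme genes above, Tmem200b, with 1 count in NT and 793 in R848, a ratio of 1305 (234 to 51625), Shisa3 (9.64 ± 0.40), Mir155hg, the host transcript of the microRNA miR-155 (8.82 ± 0.35), the protease gene Adamts4 (8.25 ± 0.29) and Rasgrp1, a Ras activator (7.96 ± 0.28). Mir155hg measured 0.0465, 0.243, 0.115 and 0.256 CPM in NT and 57.8, 70.5, 90.9 and 95 CPM in R848.

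The C-type lectin gene Clec4e, also called Mincle, went from 186, 161, 184 and 203 CPM to 3524, 3148, 4577 and 4128 CPM (4.42 ± 0.13), and the scavenger receptor genes Olr1 (6.4 ± 0.27), Marco (4.31 ± 0.51) and Msr1 (2.67 ± 0.10) rose. Mertk, a receptor for the uptake of dead cells (-1.72 ± 0.17), Cd300lf (-2.5 ± 0.20) and Trem2 (-0.49 ± 0.10) fell. Of 28 genes 14 rose and 6 fell, and on total counts 11 rose and 10 fell.

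Among Fc and ITIM receptors, Fcgr2b, the inhibitory Fc receptor, rose by 2.98 ± 0.15, and the ITIM receptor genes Siglece (2.94 ± 0.18), Cd33 (2.25 ± 0.16) and Pirb (1.59 ± 0.08) rose too, while Cd300a, another, fell (-1.06 ± 0.09). The activating Fcgr1 (-0.59 ± 0.15) and Fcgr4 (-0.50 ± 0.14) fell, and Fcgr3 was at -0.08 ± 0.09, not past the test. Of 24 genes 13 rose and 4 fell, and on total counts 10 rose and 8 fell. Lyn, the Src-family kinase that phosphorylates these receptors and the gene altered in the other genotypes, measured 191, 178, 172 and 167 CPM in NT and 353, 341, 393 and 398 CPM in R848 (1.1 ± 0.08). The LynKO libraries still held 67.6 ± 4.15 CPM (SD, n = 4) of its counts in NT and 104 ± 10.6 CPM in R848, and the labels do not say which exons the knockout alters. Of 15 Src-family genes and regulators 11 rose and 3 fell. Src rose (4.09 ± 0.12), while Csk, the kinase that holds the family inactive, fell (-0.70 ± 0.09), as did the adaptor gene Dok1 (-0.74 ± 0.10).

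Of 26 antigen presentation and T cell ligand genes 14 rose, 11 did not pass the test and the 1 that fell was Psmb9 (-0.44 ± 0.14), and on total counts 9 rose and 6 fell. Icam1 measured 94.3, 98.5, 93.8 and 107 CPM in NT and 1685, 1756, 1748 and 1726 CPM in R848 (4.16 ± 0.08), Icosl rose by 4.24 ± 0.10 and Vcam1 by 6.77 ± 0.34. Of 32 adhesion and matrix genes 20 rose and 5 fell. Itgb8 (7.65 ± 0.36), Mmp13 (6.2 ± 0.28) and Serpinb2 (6.37 ± 0.59) rose, and Thbs1 (-0.72 ± 0.14) and Itgb5 (-0.64 ± 0.10) fell.

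**Figure D4:**
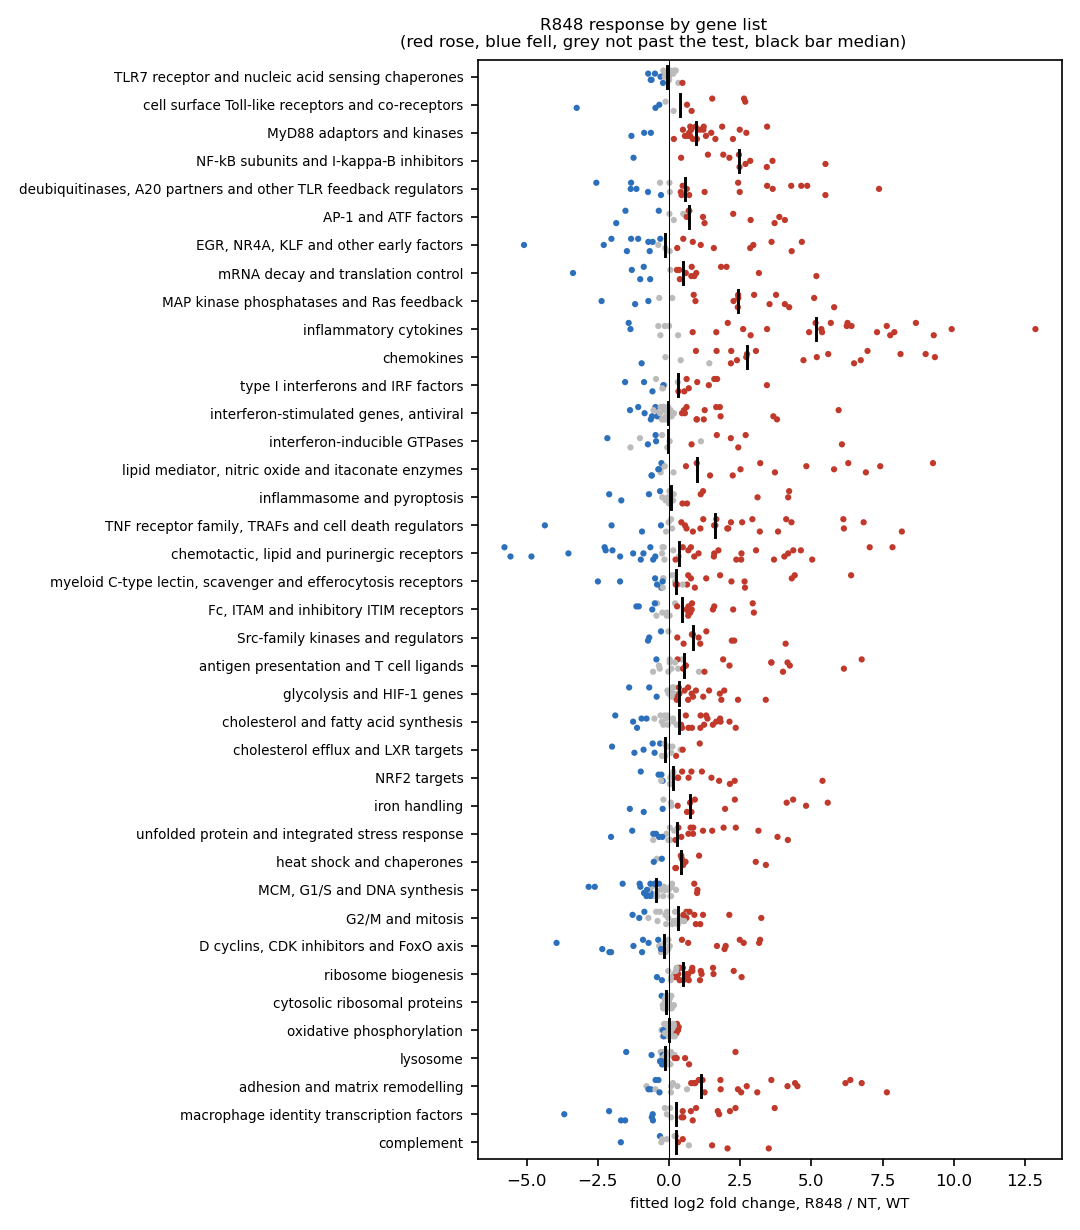
Fitted log2 fold change of R848 over NT in WT (x axis) of each tested member of the 39 pathway lists (y axis), with a black bar at the median of a list. The bars of the cytokine, chemokine, NF-kB and MAP kinase phosphatase lists lie furthest to the right, at 5.15, 2.74, 2.47 and 2.42, and those of the ribosomal protein and oxidative phosphorylation lists near 0.

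Of 29 glycolysis and HIF-1 genes 17 rose and 3 fell, and on total counts 12 rose and 10 fell. The glucose transporter genes Slc2a1 (2.42 ± 0.16) and Slc2a6 (1.94 ± 0.11) and the regulatory kinase gene Pfkfb3 (3.4 ± 0.17) rose, while its relative Pfkfb4 (-1.4 ± 0.12), Slc2a3 (-0.70 ± 0.14) and Vegfa (-0.44 ± 0.11) fell. Of 32 genes of cholesterol and fatty acid synthesis 16 rose and 5 fell, and on total counts 12 rose and 13 fell. Hmgcs1 (1.81 ± 0.15) and Idi1 (2.34 ± 0.24), enzymes of the mevalonate pathway, rose, and Elovl6 (-1.89 ± 0.21), Scd2 (-1.26 ± 0.19) and Dhcr7 (-1.12 ± 0.13) fell. Of 17 cholesterol efflux genes 3 rose and 6 fell, and on total counts 1 rose and 13 fell. Among them the transporter genes moved apart, with Abca1 at 1.08 ± 0.16 and Abcg1 at -2.0 ± 0.27. The lipid droplet gene Plin2 measured 1358, 1246, 1178 and 1220.1 CPM in NT and 500.1, 619, 464 and 528 CPM in R848 (-1.22 ± 0.10).

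Genes of the oxidative stress and iron responses rose in part. Slc7a11, the cystine transporter, measured 13.1, 8.47, 12.1 and 14.7 CPM in NT and 393, 293, 705 and 604 CPM in R848 (5.39 ± 0.26), Txnrd1 rose by 2.31 ± 0.10, Sqstm1 by 2.14 ± 0.10 and Nfe2l2, which encodes NRF2 itself, by 1.76 ± 0.09. Of 24 NRF2 targets 11 rose and 4 fell, but on total counts 7 rose and 10 fell. In iron handling, 11 of 17 genes rose and 3 fell, and on total counts 9 rose and 5 fell. The importers Slc39a14 (4.81 ± 0.14) and Slc11a2 (2.31 ± 0.08) and the siderophore-binding Lcn2 (5.57 ± 0.28) rose, and the exporter gene Slc40a1, ferroportin, fell (-1.38 ± 0.13). Of 26 stress response genes 14 rose and 6 fell, and on total counts 10 rose and 12 fell. Gadd45b (4.17 ± 0.10), Gadd45a (3.81 ± 0.16) and Herpud1 (2.34 ± 0.18) rose, and Sesn2 (-2.04 ± 0.15) and Eif2ak3, the sensor kinase PERK (-1.29 ± 0.14), fell. Of 13 heat shock and chaperone genes 10 rose and 2 fell, and on total counts 4 rose and 2 fell. The heat shock genes Hspa1a (3.05 ± 0.14) and Hspa1b (3.4 ± 0.16) rose, and reads of this pair can be shared.

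Of 38 genes of G1/S and DNA synthesis 17 fell and 3 rose, with a median of -0.46, and on total counts 3 rose and 25 fell. Cdt1, the licensing factor, measured 31.2, 32.8, 35.3 and 31.6 CPM in NT and 5.45, 6.33, 4.46 and 4.7 CPM in R848 (-2.61 ± 0.15), and E2f2 fell by 2.82 ± 0.22 on the log2 scale. The 3 that rose were E2f8 (1.0 ± 0.14), Cdc25a (0.98 ± 0.10) and Tk1 (0.89 ± 0.18). Of 34 mitosis genes 11 rose (32.4%, against 30.0% of all genes tested) and 3 fell (8.82%, against 26.7%). On total counts 5 rose and 8 fell, where 2468 and 6809 of all 13986 genes did. Mki67, the gene of the Ki-67 antigen, measured 18.1, 27, 35.7 and 30.8 CPM in NT and 273, 274, 307 and 182 CPM in R848 (3.24 ± 0.18), and Hmgb2 rose by 2.12 ± 0.11, while Cenpa (-1.28 ± 0.12), Aurkb (-1.05 ± 0.21) and Bub1b (-0.87 ± 0.19) fell. Of 27 cyclin, CDK inhibitor and FoxO genes 9 rose and 11 fell, and on total counts 7 rose and 17 fell. Among them Cdk6 (3.16 ± 0.12), the CDK inhibitor gene Cdkn2b (3.2 ± 0.27) and Ccnd2 (2.62 ± 0.23) rose. Foxo3 (-2.03 ± 0.11) and Sesn1 (-2.35 ± 0.11), a FoxO target, fell.

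Of 30 ribosome biogenesis genes 22 rose and 2 fell, with a median of 0.49, while on total counts 11 rose and 5 fell. Rcl1 (2.55 ± 0.14), Rrs1 (2.27 ± 0.11) and Nop58 (1.56 ± 0.18) rose most, and Wdr12 (-0.42 ± 0.13, lost without mouse 4) and Pes1 (-0.25 ± 0.07) fell. Of 32 cytosolic ribosomal protein genes none rose and 1, Rpl18 (-0.26 ± 0.09), fell, a call lost without mouse 2 or mouse 3. Their median was -0.09, and on total counts all 32 fell. Of 31 oxidative phosphorylation genes 4 rose (Atp5b, Uqcrfs1, Atp5a1 and Ndufs1, at most 0.34) and 2 fell (Sdhb and Sdhd), while on total counts 0 rose and 20 fell. Of these 6 calls, those of Sdhb, Sdhd, Ndufs1 and Uqcrfs1 were lost when single mice were left out.

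Transcription factors of macrophage identity moved in both directions. Of 22 genes 11 rose and 7 fell, and on total counts 8 rose and 10 fell. Hhex measured 51.8, 55.1, 56.3 and 59.3 CPM in NT and 5.63, 3.38, 3.9 and 4.05 CPM in R848 (-3.68 ± 0.14), and Cebpa fell by 1.69 ± 0.11 on the log2 scale. The MiT family factors Tfec (3.71 ± 0.13) and Mitf (2.33 ± 0.10) rose, and Tfeb of the same family, a regulator of lysosome genes, fell (-1.5 ± 0.11). Of 26 lysosome genes 5 rose (19.2%, against 30.0% of all genes tested) and 9 fell (34.6%, against 26.7%). On total counts 3 rose and 21 fell, where 2468 and 6809 of all 13986 genes did. In the complement list, 6 of 13 rose (46.2%, against 30.0% of all genes tested) and 2 fell (15.4%, against 26.7%). On total counts 2 rose and 5 fell. The largest rises were those of Cfb (3.5 ± 0.21) and C3, from 154 ± 23.2 CPM to 626 ± 91.3 CPM (2.06 ± 0.17).

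Per transcript length, which allows levels of different genes to be compared, the inflammatory genes reached the top of the transcriptome. Lyz2, the lysozyme gene of macrophages, ranked first in both groups. Ccl3 moved from the 1539th to the 8th rank by mean TPM (counts divided by exon length and scaled to a common sum), Cd14 from the 31st to the 9th, Il1b from the 1617th to the 14th, Cxcl2 from the 5342nd to the 20th and Tnf from the 3626th to the 21st. Some of the genes that rose at least 8-fold also lay next to each other. The interleukin-1 locus (chr2:129297370-129375748) held Il1a, Il1b and 2 non-coding genes that rose by 3.39 to 8.67, the Ptgs2 locus (chr1:150074873-150164948) Ptgs2 and the non-coding Ptgs2os and Ptgs2os2 (4.97 to 9.27), and chr17:17830188-17893952 the formyl peptide receptor genes Fpr1 and Fpr2 with Has1 and Mir99b (3.96 to 4.18). Without a stated strand setting, reads of genes that overlap on opposite strands cannot be told apart.

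The response differed between the male and the female mice at a small number of inflammatory genes. Of 13986 genes 13 passed the test of the difference (0.093%), 12 with a positive difference, female minus male (0.0858%), and 1 (0.00715%), Rasa3, with a negative one (-0.98 ± 0.17). The 3 with the smallest p were Ccl4, Gbp2 and Rsad2. Ccl4 measured 7.26, 6.12, 2.14 and 3.03 CPM in NT and 394, 369.7, 585 and 910.0 CPM in R848, so that mice 3 and 4 (female) stood below mice 1 and 2 (male) without ligand and above them with it. The difference of the responses, female minus male, was 2.33 ± 0.29 (adjusted p = 0.00381). Gbp2 measured 15.7, 13, 8.48 and 8.92 CPM and 53.4, 57.1, 84.3 and 96.1 CPM (1.42 ± 0.19, adjusted p = 0.00381). Rsad2 was higher with R848 than in NT in both females and lower in both males (1.93 ± 0.26, adjusted p = 0.00381), which its pooled change of 0.17 ± 0.26 does not show, and so was Cmpk2 (1.36 ± 0.23). The others were Ptgs2 (2.1 ± 0.29), Cxcl10 (1.86 ± 0.25), Ccl2 (2.48 ± 0.35), Ccl7 (3.72 ± 0.53), Saa3 (1.6 ± 0.24), Ccl3 (1.29 ± 0.20), Ccl5 (2.09 ± 0.33) and Hcar2 (2.99 ± 0.50).

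For all 12 genes both females had lower NT levels than both males, and for 10 of the 12 both also had higher R848 levels. The exceptions were the chemokine genes Ccl2, which stood at 6.98, 7.75, 0.535 and 1.17 CPM in NT and 27.7, 35.7, 20.2 and 21.5 CPM in R848, and Ccl7, at 2.23, 2.35, 0.153 and 0.110 CPM and 5.26, 8.11, 5.17 and 5.42 CPM. The 12 genes were chosen from these same values for a higher response in females, which favours such a pattern. Compared within NT alone, female against male, 6 of the 12 passed the edgeR test, and within R848 alone 7. Over all genes tested 14 passed in NT and 126 in R848. With 2 mice of each sex, sex and any other difference between mice 1 and 2 and mice 3 and 4 cannot be told apart. Leaving out mouse 1, 2, 3 or 4 left 2, 22, 2 and 4 calls, and with the mouse number as a block there were 157. The same contrast was fitted, after these results were seen, in the LynAKO and LynKO mice without the 1 library that held transcripts of both sexes. The 12 genes had the same sign there, from 0.04 for Ccl2 to 1.58 for Hcar2, but none of the 13986 genes passed the test (326 had an unadjusted p under 0.05, none of the 12 among them). Rasa3 had the same sign there too (-0.46, with an unadjusted edgeR p of 0.0377).

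**Figure D5:**
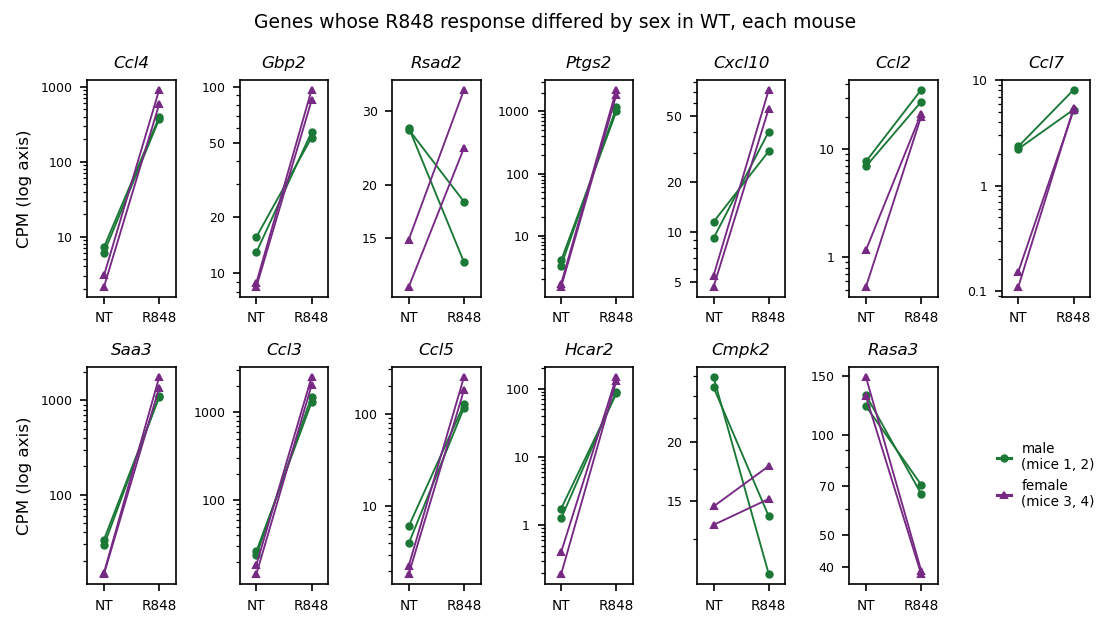
TMM-scaled CPM on log axes of the 13 genes whose R848 response differed by sex, with 1 line per WT mouse from NT to R848 (green circles male, purple triangles female). For the 12 genes before Rasa3 the purple lines start below the green ones and rise more steeply, and for Rsad2 and Cmpk2 the green lines go down.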

How the data were processed

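RNA of cultured macrophages was selected for poly-A and sequenced as paired reads, per the labels' protocols. The values are raw counts per gene deposited by the authors in 1 table of 48 libraries. The submitters' processing notes name Trimmomatic 0.36, STAR 2.5.2b, featureCounts, Subread 1.5.2, DESeq2 and the build GRCm38, without roles. Which annotation release and strand setting the authors used: not given in the sources used here. Gene positions and lengths were looked up by identifier in GENCODE M21 (49056 of 49315 genes matched), and promoter sequences were taken from RefSeq (GRCm38.p6).

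Genes were kept with edgeR's filterByExpr (minimum count 10, minimum total 15), scaled by TMM and tested with edgeR 4.0.16 by quasi-likelihood (R 4.3.3), with adjusted p under 0.05 as the threshold. The 12 WT libraries shared 1 fit, with group as the only term, so the main tests did not use the pairing of libraries by mouse. With the mouse number as a block, 8382 genes passed for R848 against NT in place of 7935. For R848 against LPS 3692 passed in place of 2932, and for the contrast by sex 157 in place of 13. R848 was compared with NT and with LPS, the R848 response was compared between the sexes in a fit of sex by treatment, and the mean R848 response of the 3 knockout genotypes was fitted on their own 36 libraries. Replicates were separate mice. Alternatives were DESeq2 1.42.0, other size factors, no filter, total counts (chosen after the data were seen), the mouse number as a block, sex as a covariate, other sets of libraries and leaving out each mouse. Deviations from the group means correlated at 0.18 to 0.38 for the 4 pairs of NT and R848 libraries with the same mouse number and at -0.36 to 0.12 for the 12 other pairs, so the numbers were taken to pair the samples. Data of 13986 genes, 200 of them changed, were simulated. For R848 against NT, 77% of 2-fold and 94% of 8-fold changes were recovered, with 15 false calls. For the contrast by sex these were 32% and 78%, with 13 false calls. The simulation held no differences between mice and far fewer changed genes than the data, so its rates need not hold for the data. Exact counting intervals have 95% confidence.

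The groups, gene lists and named genes were chosen with earlier results of these data known. Named genes were a fixed set, up to 4 members each way per list with the largest change among those past the test and not overlapping, the 15 largest changes each way at a mean of at least 5 CPM, 8 each way against LPS, and the 3 genes with the smallest p by sex. The other 10 genes that differed by sex, the loci of neighbouring genes, Lyz2, Cd36, Bcl2l11, Fcgr3, Il18, Il33, Ltb, Tnfsf10, Tnfsf14, Has1, Mir99b, Ptgs2os and Ptgs2os2 were named after their values were seen. Predicted gene models were counted and not named, and some genes that the rule takes are not reported here.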

Additional observations from a re-analysis of the deposited data

Results flagged for a closer look

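In 23 of 536 groups of 4 libraries looked at, 1 library stood apart by its gap to the nearest other over the range of the group, and chance alone gives this in about 1 in 20 groups. One was the share of mitochondrial counts in R848 of mouse 4 (1.02%). The library was higher than the other 3 for Art2a-ps (NT of mouse 1, 0.884 CPM), Ccl7 (R848 of mouse 2, 8.11 CPM), Cxcl11 (NT of mouse 2, 0.0406 CPM), Dusp8 (R848 of mouse 4, 10.1 CPM), Fos (R848 of mouse 2, 73.4 CPM), Fpr1 (NT of mouse 4, 4.13 CPM), Ikbke (NT of mouse 4, 116 CPM), Il12b (NT of mouse 3, 0.0382 CPM), Irf8 (NT of mouse 1, 281 CPM), Nos2 (NT of mouse 2, 0.770 CPM), Ptgs2os (NT of mouse 2, 0.0406 CPM), Sdhd (R848 of mouse 4, 82.9 CPM), Serpinb2 (NT of mouse 2, 0.243 CPM), Tmem200b (NT of mouse 2, 0.0406 CPM) and Tnip1 (R848 of mouse 3, 1004 CPM). It was lower for Cxcl1 (NT of mouse 1, 1.21 CPM), Fpr2 (NT of mouse 2, 2.27 CPM), Hspa1a (R848 of mouse 3, 53.8 CPM), Irgm2 (R848 of mouse 1, 14.2 CPM), Peli2 (NT of mouse 2, 50.6 CPM), Ptgs1 (NT of mouse 2, 42.1 CPM) and Sesn1 (NT of mouse 3, 82.0 CPM). Cxcl11, Il12b, Ptgs2os and Tmem200b had a single count in the library named.

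The R848 response differed between female and male WT mice by the test of the difference itself at 13 genes. On the log2 scale, female minus male, the differences were Ccl4 2.33, Gbp2 1.42, Rsad2 1.93, Ptgs2 2.10, Cxcl10 1.86, Ccl2 2.48, Ccl7 3.72, Saa3 1.60, Ccl3 1.29, Ccl5 2.09, Hcar2 2.99, Cmpk2 1.36 and Rasa3 -0.98. With 2 mice of each sex, sex and mouse number cannot be told apart.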

How the results depend on the processing

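The count of genes for R848 against NT (7935) stayed within 1.5 times under every alternative run, from 6765 to 7764 when single mice were left out (3602 to 3982 higher, 3074 to 3782 lower) and 8382 with the mouse number as a block. On total counts, 2468 were higher and 6809 lower, and of the changes of at least 2-fold 2686 were lower in place of 1491. Atp5a1 (-0.0861), Atp5b (-0.0280), Ndufs1 (-0.109) and Uqcrfs1 (-0.0480) then changed sign. At least 2-fold, leaving out mice gave 2856 to 3254 genes (1526 to 1696 higher, 1302 to 1586 lower). R848 against LPS gave 1830 to 2542 without single mice (733 to 1179 higher, 1041 to 1363 lower), 3692 with the block and 3048 higher on total counts. In the knockouts, leaving out mice gave 9817 to 10476 (4759 to 4908 higher, 4909 to 5580 lower), the block 11004, and total counts 3104 higher and 8393 lower. The contrast by sex moved most. It gave 66 genes with DESeq2 (41 higher, 25 lower), 141 without the filter (79 and 62), 157 with the mouse number as a block (88 and 69) and 2 to 22 without single mice (2 to 20 higher, 0 to 2 lower). All 13 genes were among those of the first 3, and 1, 11, 2 and 4 of them remained without mice 1, 2, 3 and 4. The cause was not tested. Depth limits genes with few counts, such as Ifnb1 with 4 counts in R848.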
